A study of Mus musculus with 12 samples.

Results

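The effect of losing Lpcat3 in mouse liver was examined across both diets of the study at once: 6 knockout libraries (LKO) were set against 6 floxed libraries (FLOX), with diet as a further term in the model. These 12 libraries, all that the series holds, gave 15982 tested genes out of 55401 counted. Each comparison was repeated without the second knockout library on the control diet, called LKO-NC replicate 2, because its Lpcat3 level went against its label. All mice were male C57BL/6, given as 8 to 10 weeks old. Knockout mice carried the floxed allele together with Cre (LPCAT3flox/flox-cre), and floxed mice carried the floxed allele alone (LPCAT3flox/flox). Each genotype was fed either an HFHS diet for 16 weeks, for which the treatment protocol names 30% sucrose and the design text fructose, or a control diet (NC). The 4 groups were LKO-NC, FLOX-NC, LKO-HFHS and FLOX-HFHS, with 3 libraries each. The promoter that drives Cre is not given in the sources used here, and no group carried Cre without the floxed allele, so an effect of Cre itself cannot be told apart from that of the deletion. Nothing in the labels says that each library came from a separate animal, and p-values then measure only how these libraries vary, which may be technical.

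Lpcat3 belongs to the Lands cycle, in which phospholipases cut a fatty acid from a membrane phospholipid and acyltransferases put another in its place. Its enzyme favours polyunsaturated chains such as arachidonate and linoleate, and in liver it is known for its part in membrane fluidity, in the loading of very low density lipoprotein with triglyceride and as a target of the sterol sensor LXR. Fatty acids that are not exported can be stored in lipid droplets or burned in mitochondria and peroxisomes, a programme driven by the nuclear receptor PPAR alpha. The series' title links Lpcat3 to the estrogen sulfotransferase Sult1e1 and to the oxidation and synthesis of fatty acids.

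Total counts per library ran from 34951150 to 59205759. Ribosomal RNA genes, with those of mitochondria among them, took 8.40% to 42.3% of the counts of a library. On the HFHS diet this share was 34.8%, 17.3% and 10.6% in LKO, against 34.8%, 26.6% and 31.0% in FLOX. On the control diet it was 14.7%, 9.68% and 13.15% in LKO, against 42.3%, 12.85% and 8.40% in FLOX. Mitochondrial genes took 14.0% to 36.8% of the counts of a library. The TMM scaling factors of edgeR ran from 0.644 in FLOX-HFHS replicate 1 and 0.752 in FLOX-NC replicate 1 to 1.46 in LKO-HFHS replicate 3. Levels below are CPM, counts scaled to library size, after this scaling. All libraries carried the hepatocyte marker list at high level, with a summed 48600 to 105100 CPM in knockout and 47370 to 116000 CPM in floxed livers. In bulk tissue, fewer cells of a type and less RNA per cell cannot be told apart. Without a scaling factor the median log2 fold change of all tested genes moved to 0.25, against -0.02 with it, so directions below are relative to the scaled libraries.

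Lpcat3 (ENSMUSG00000004270, mm10 chromosome 6, 124663027 to 124704418, plus strand) was lower in 5 of the 6 knockout libraries than in every floxed library. On the HFHS diet it stood at 24.96, 25.9 and 29.4 CPM in LKO, against 72.6, 80.5 and 75.7 CPM in FLOX. On the control diet it stood at 25.4, 65.0 and 19.4 CPM in LKO, against 49.7, 49.9 and 61.9 CPM in FLOX. The genotypes did not overlap on the HFHS diet, whereas the library labelled LKO-NC replicate 2 lay above all floxed libraries of its diet. Over both diets the mean difference was -1.13 on log2 of CPM plus 0.1, with a two-sided p of 0.02 (exact permutation of genotype within diet, 400 arrangements, smallest possible p 0.005). With genotype exchanged only between libraries of the same replicate number, that p was 0.0625. In the fit across all genes the log2 fold change was -1.03 ± 0.27 (SE) and the adjusted p 0.804 (edgeR quasi-likelihood test, Benjamini-Hochberg). Leaving out LKO-NC replicate 2, it was -1.40 ± 0.15 (SE) with an adjusted p of 0.00461, which is a description only, since that library was singled out by this gene. Which exons the Cre removes is not given in the sources used here. The deposited estimates also assigned Lpcat3 reads to different transcripts in different libraries, such as 2646 counts on a retained-intron transcript in FLOX-NC replicate 3, where the other control-diet libraries held them on the protein-coding one.

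Across all 12 libraries, 0 of 15982 genes passed the test (0%, edgeR quasi-likelihood, adjusted p under 0.05), and 753 (4.71%) had an unadjusted p under 0.05, of which 323 (2.02%) were higher and 430 (2.69%) lower in knockout livers. DESeq2 called 24 genes (0.151%) and limma voom with quality weights 5 (0.0313%) in the same libraries. Without LKO-NC replicate 2, 4 genes (0.025%) passed, with 3 higher (0.0188%) and 1 lower (0.00626%) in knockout livers. The lower one was Lpcat3, and the higher ones were Cidec, Gpc1 and Atf3. In that fit 612 genes (3.83%) had an unadjusted p under 0.05, 314 of them higher (1.96%) and 298 lower (1.86%), while DESeq2 called 36 (0.226%) and limma voom 24 (0.15%).

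Cidec, known as fat-specific protein 27, coats lipid droplets and lets them fuse into larger ones (ENSMUSG00000030278, chromosome 6, 113424634 to 113435760, minus strand). HFHS livers had 45.8, 71.1 and 84.8 CPM in LKO, against 10.0, 18.6 and 23.2 CPM in FLOX. Control-diet livers had 7.99, 2.73 and 5.57 CPM in LKO, against 1.39, 1.98 and 0.786 CPM in FLOX. The genotypes did not overlap on either diet, with LKO-NC replicate 2 the knockout library nearest to the floxed ones. The log2 fold change was 1.97 ± 0.30 (SE) over 12 libraries, with an adjusted p of 0.213 in edgeR, 1.04e-06 in DESeq2 and 0.0366 in limma voom. Without LKO-NC replicate 2 Cidec rose by 2.10 ± 0.28 (log2, SE), adjusted p 0.0314 (edgeR quasi-likelihood). Its knockout effect was 1.97 on the control diet and 1.96 on the HFHS diet (log2).

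Gpc1 encodes glypican 1, a heparan sulfate proteoglycan of the cell surface (ENSMUSG00000034220, chromosome 1, 92831645 to 92860779, plus strand). In the HFHS groups it was at 33.01, 42.8 and 37.8 CPM in LKO, against 18.1, 16.9 and 18.5 CPM in FLOX. In the control-diet groups it was at 29.4, 11.1 and 19.4 CPM in LKO, against 6.14, 10.6 and 7.95 CPM in FLOX. The genotypes were apart on both diets, with LKO-NC replicate 2 just above the highest floxed library. The log2 fold change was 1.18 ± 0.21 (SE) over 12 libraries, with an adjusted p of 0.527 in edgeR. Without LKO-NC replicate 2 Gpc1 rose by 1.30 ± 0.18 (log2, SE), adjusted p 0.0337 (edgeR quasi-likelihood).

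Atf3 is a stress-induced transcription factor of the ATF and CREB family (ENSMUSG00000026628, chromosome 1, 191170296 to 191218039, minus strand). Under the HFHS diet there were 6.51, 8.63 and 8.22 CPM in LKO, against 2.71, 2.74 and 3.27 CPM in FLOX. Under the control diet there were 8.97, 1.78 and 17.9 CPM in LKO, against 3.25, 3.43 and 2.14 CPM in FLOX. The genotypes were apart on the HFHS diet, while on the control diet LKO-NC replicate 2 lay below all floxed libraries. The log2 fold change was 1.56 ± 0.38 (SE) over 12 libraries with an adjusted p of 0.804. Without LKO-NC replicate 2 Atf3 rose by 1.77 ± 0.24 (log2, SE), adjusted p 0.0314 (edgeR quasi-likelihood).

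These calls did not hold under every setting. Over 23 alternatives to the fit without LKO-NC replicate 2, the call was lost in 10 for Cidec, 13 for Gpc1 and 12 for Atf3, with an adjusted p of up to 0.204 for each, and in 3 for Lpcat3, with an adjusted p of up to 0.377. With ribosomal RNA share added to the model, the adjusted p without LKO-NC replicate 2 was 0.078 for Cidec, 0.0749 for Gpc1 and 0.0749 for Atf3, and 2 genes passed, Lpcat3 and Serpina7. Leaving out 1 further library gave between 0 and 4 calls, with 0 when LKO-NC replicate 3 or LKO-HFHS replicate 2 was left out.

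For these called genes, the 250 bases before their annotated starts are shown (RefSeq, GRCm38.p6), which hold 1 match to a set of 4 motifs searched on both strands. Gpc1 is named only. The first 2 sequences are the alternative starts of Cidec, the distal one at chr6:113435761-113436010 and the proximal one at chr6:113434765-113435014, and the third is Atf3 at chr1:191183334-191183583, all on the minus strand and written 5′ to 3′. The Atf3 window lies within the annotated span of the gene and overlaps an exon and UTR of it. Capitals mark the match.
Cidec distal start: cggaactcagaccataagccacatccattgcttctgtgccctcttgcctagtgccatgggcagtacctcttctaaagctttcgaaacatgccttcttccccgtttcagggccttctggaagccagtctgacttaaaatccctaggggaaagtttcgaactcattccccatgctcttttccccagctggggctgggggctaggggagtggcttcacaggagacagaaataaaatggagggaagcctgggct
Cidec proximal start: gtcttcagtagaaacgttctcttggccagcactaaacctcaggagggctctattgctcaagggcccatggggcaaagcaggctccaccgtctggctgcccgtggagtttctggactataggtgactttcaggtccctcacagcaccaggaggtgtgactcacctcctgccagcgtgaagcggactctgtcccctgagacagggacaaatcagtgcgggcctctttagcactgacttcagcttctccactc
Atf3: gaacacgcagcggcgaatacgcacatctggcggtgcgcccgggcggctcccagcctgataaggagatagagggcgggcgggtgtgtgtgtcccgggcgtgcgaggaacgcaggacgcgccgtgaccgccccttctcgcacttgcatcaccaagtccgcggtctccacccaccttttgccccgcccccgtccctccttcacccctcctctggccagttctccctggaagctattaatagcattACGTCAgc
The match in Atf3 is ACGTCA, the reverse complement of the ATF and CREB core TGACGT, from base -8 relative to the start. That core is in 6.47% of 32851 RefSeq promoter windows of the same length. The E-box CACGTG (6.02% of windows), the sterol regulatory element TCACNCCAC (1.05%) and CCAAT (33.8%) had no match in these 3 windows.

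**Figure D1:**
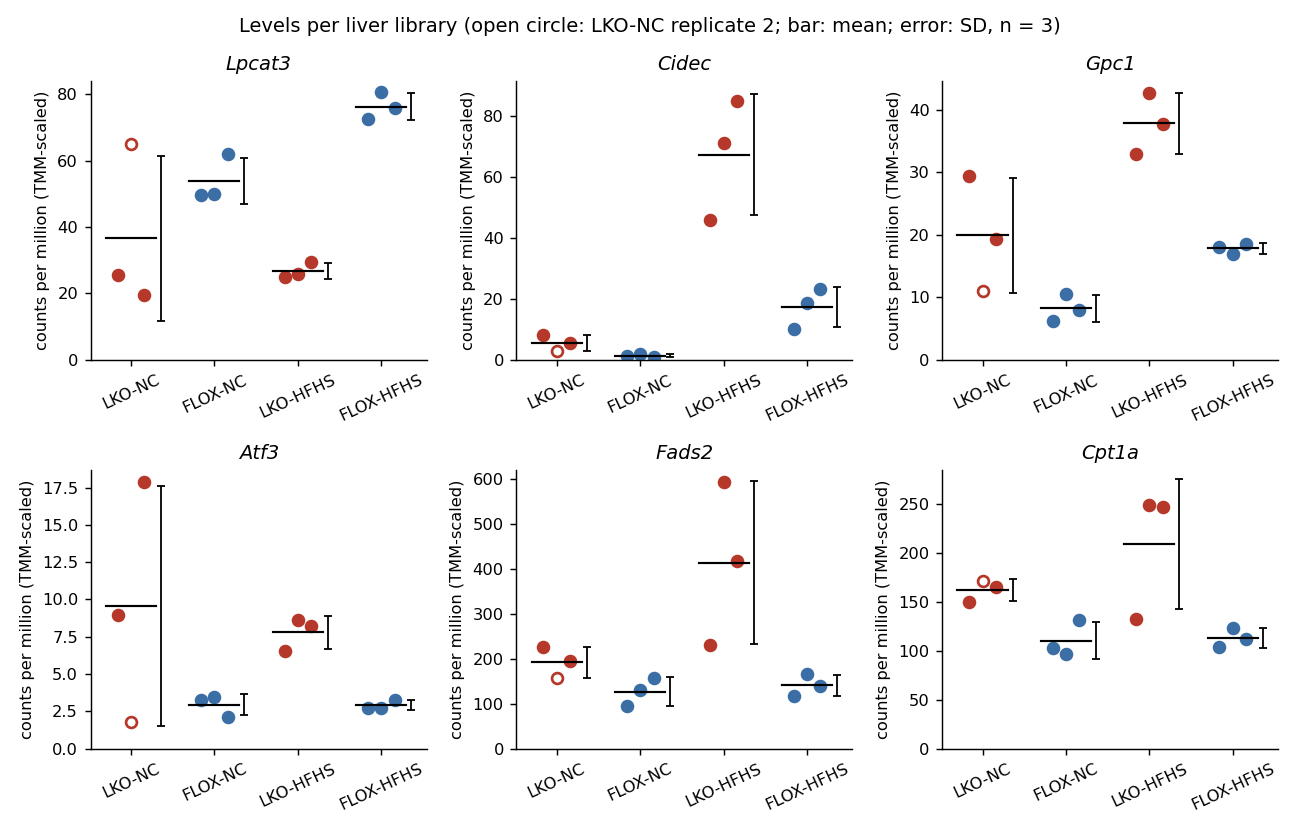
Scaled CPM (linear axes from 0) of Lpcat3, Cidec, Gpc1, Atf3, Fads2 and Cpt1a in each liver library, by group, with knockout libraries in red and floxed ones in blue; bars are means and error bars SD (n = 3). The open circle, LKO-NC replicate 2, lies with the floxed libraries for Lpcat3 (65.0 CPM) and Atf3 (1.78 CPM), and apart from them for Cpt1a.

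The genes of smallest p over 12 libraries that were higher in knockout livers on both diets included, beside Cidec, Gpc1 and Atf3, the following. Nceh1, a hydrolase of neutral cholesterol esters, had a log2 fold change of 0.87 ± 0.19 (SE, adjusted p 0.804, edgeR). Pnpla2, the adipose triglyceride lipase that opens lipid droplet breakdown, had 0.63 ± 0.15, and Cpt1a, which brings fatty acids into mitochondria, 0.72 ± 0.17 (log2, SE). Fads2, the desaturase that starts the making of long polyunsaturated fatty acids, had 1.08 ± 0.26 (log2, SE). None of these 4 passed in edgeR, whereas DESeq2 called Nceh1, Cpt1a and Fads2, with adjusted p of 0.0407, 0.0432 and 0.0380.

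St3gal5, the synthase of the ganglioside GM3, stood on the HFHS diet at 124, 168 and 118 CPM in LKO, against 70.3, 80.8 and 64.5 CPM in FLOX. On the control diet it stood at 99.4, 89.9 and 72.7 CPM in LKO, against 67.6, 42.9 and 50.6 CPM in FLOX. All knockout libraries thus lay above all floxed ones of their diet. Its log2 fold change was 0.81 ± 0.16 (SE), with an adjusted p of 0.804 in edgeR, 0.00213 in DESeq2 and 0.0422 in limma voom. Cgref1, a secreted protein with calcium-binding motifs, had 1.22 ± 0.29 (log2, SE), with a level that was several times higher on the HFHS diet in both genotypes. Hist1h2bq, a replication-dependent histone H2B gene, was at 0 counts in all floxed libraries and at 0.105 to 3.93 CPM in knockout ones. Against a floor of 3 counts over the floxed group it was at least 120.7-fold higher, and at least 72.3-fold without LKO-NC replicate 3, which held 218 of the 429 counts. Further, near-identical histone genes make its counts uncertain.

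Among the genes of smallest p that were lower in knockout livers, the transcription factor Sox5 stood on the HFHS diet at 6.16, 4.88 and 4.76 CPM in LKO, against 8.48, 8.21 and 10.3 CPM in FLOX. Control-diet livers had 6.15, 6.30 and 5.25 CPM in LKO, against 12.8, 8.96 and 7.72 CPM in FLOX. The genotypes did not overlap on either diet, and the knockout effect was -0.73 on the control and -0.77 on the HFHS diet (log2). The bZIP factor Cebpe had a log2 fold change of -0.96 ± 0.22 and the zinc finger factor Tshz2 -1.34 ± 0.32 (SE). Gbp10, an interferon-inducible GTPase, had -1.69 ± 0.37 and Adora1, the adenosine A1 receptor, -0.75 ± 0.17 (log2, SE). Ntrk2, the receptor of brain-derived neurotrophic factor, had -2.27 ± 0.54 and the cytochrome P450 Cyp2a22 -1.61 ± 0.38 (log2, SE). The Ntrk2 value pools unlike effects, -4.89 on the control and -1.30 on the HFHS diet (log2). On the control diet it was near the detection limit, with 3, 0 and 0 counts in LKO against 18, 43 and 42 in FLOX. Arhgap26, a GTPase-activating protein, had -0.73 ± 0.18 and the semaphorin receptor Plxna2 -0.85 ± 0.21 (log2, SE). All of these had an adjusted p of 0.804 in edgeR, and DESeq2 called all but Arhgap26 and Plxna2.

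The glucuronosyltransferase Ugt1a6b was lower on the control diet, at 9.68, 11.8 and 24.6 CPM in LKO, against 139, 89.3 and 39.9 CPM in FLOX. On the HFHS diet it stood at 27.6, 26.2 and 24.8 CPM in LKO, against 54.8, 39.6 and 54.2 CPM in FLOX. Ugt1a5, of the same locus, went the other way, with 5.49, 1.78 and 153 CPM in LKO-NC against 6.14, 2.31 and 2.45 CPM in FLOX-NC. HFHS livers had 17.0, 32.9 and 80.8 CPM in LKO, against 6.49, 2.44 and 2.76 CPM in FLOX. These genes share all but their first exon, so the split of reads between them is uncertain.

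**Figure D2:**
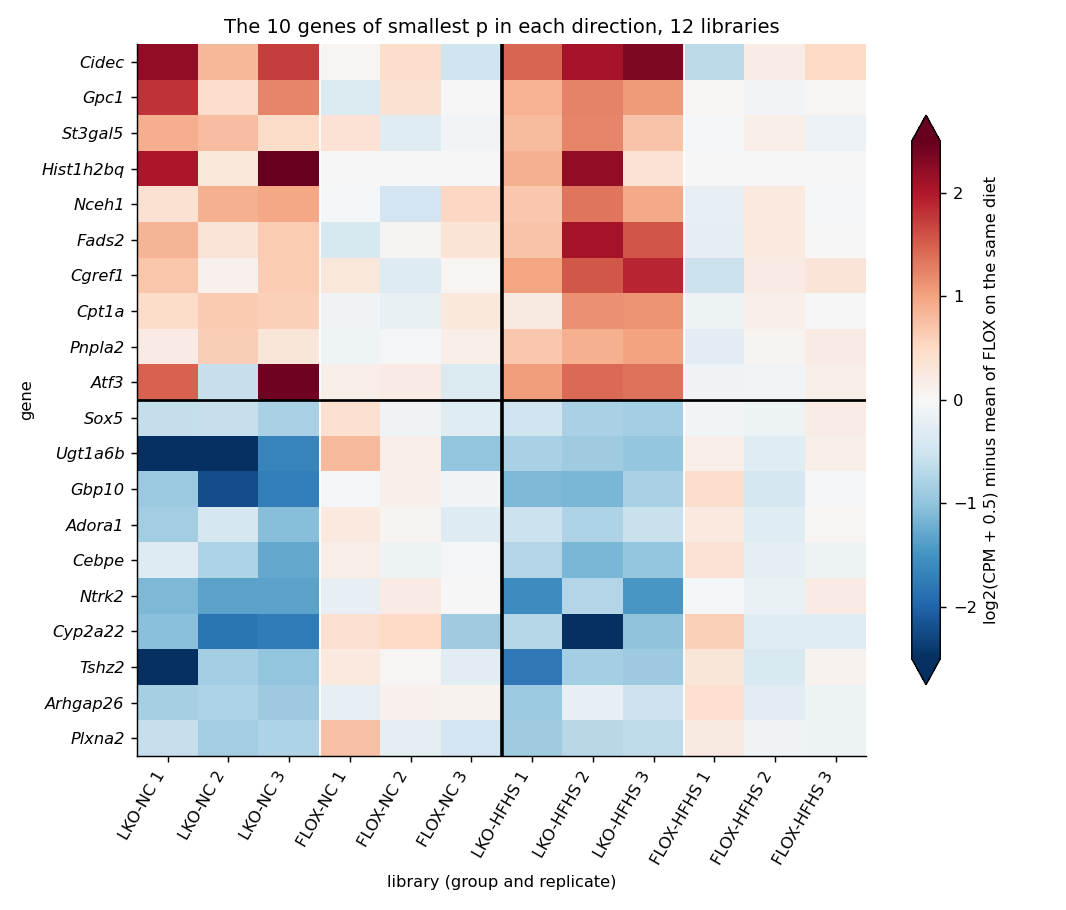
Level of the 10 genes of smallest p in each direction (12-library fit) in every library, as log2 of CPM plus 0.5 minus the mean of the floxed libraries on the same diet; colours end at ±2.5. Knockout columns are on the left of each diet, and LKO-NC replicate 2 is paler than its group in Cidec, Gpc1 and Hist1h2bq and of the opposite colour in Atf3, but not in Gbp10.

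Genes of fatty acid oxidation stood higher in knockout livers as a group. Of 33 tested PPAR alpha targets and oxidation genes, 30 had a positive log2 fold change over 12 libraries, against 47.8% of all genes, and 25 were positive on both diets, against 25.2%. Their median was 0.43 on the log2 scale, beside -0.02 for all tested genes. At an unadjusted p under 0.05 there were 13 higher and 0 lower, and 0 passed the adjusted test. Without LKO-NC replicate 2 these numbers were 9 and 0 with a median of 0.46, and with ribosomal RNA share in the model 11 and 0 with a median of 0.28 (2.14% of all genes higher and 1.74% lower). With FLOX-NC replicate 1 and FLOX-HFHS replicate 1 left out, whose scaling factors were lowest, they were 13 and 0 with a median of 0.32 (2.17% and 1.61%). The median was 0.47 on the HFHS diet and 0.29 on the control diet. Genes of a pathway vary together, so these counts describe the list and are no test of it.

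Cpt1a stood on the HFHS diet at 132, 248 and 246 CPM in LKO, against 103, 123 and 112 CPM in FLOX. In the control-diet groups it was at 150, 171 and 165 CPM in LKO, against 102, 96.4 and 131 CPM in FLOX. Knockout and floxed libraries were apart on both diets, including LKO-NC replicate 2. The same held for 2 more of the 33 genes (0.313% of all genes were higher with no overlap on both diets), Acot1 and Acaa1b, Acaa1b being named after its values were seen. Acot1, a cytosolic thioesterase of long acyl-CoA, had 6.01, 12.8 and 7.90 CPM in LKO-HFHS, against 1.02, 2.79 and 2.61 CPM in FLOX-HFHS. Control-diet livers had 11.4, 12.7 and 14.3 CPM in LKO, against 10.3, 7.73 and 10.4 CPM in FLOX. Its log2 fold change was 2.03 on the HFHS and 0.43 on the control diet, with an unadjusted interaction p of 0.00699 (edgeR, adjusted p 0.955). Cyp4a14, a fatty acid omega-hydroxylase from a family of near-identical genes, had 394, 362 and 291 CPM in LKO-HFHS, against 62.1, 93.2 and 116 CPM in FLOX-HFHS. The control-diet groups overlapped, at 258, 205 and 484 CPM in LKO against 270, 123 and 268 CPM in FLOX. Pex11a, which makes peroxisomes divide, had a pooled log2 fold change of 0.53 ± 0.14 (SE). The receptor gene Ppara and its coactivator Ppargc1a, named after their values were seen, had -0.23 ± 0.17 and -0.45 ± 0.23 (log2, SE). Without a scaling factor Ppara was at 0.07, beside a median of 0.25 for all tested genes.

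**Figure D3:**
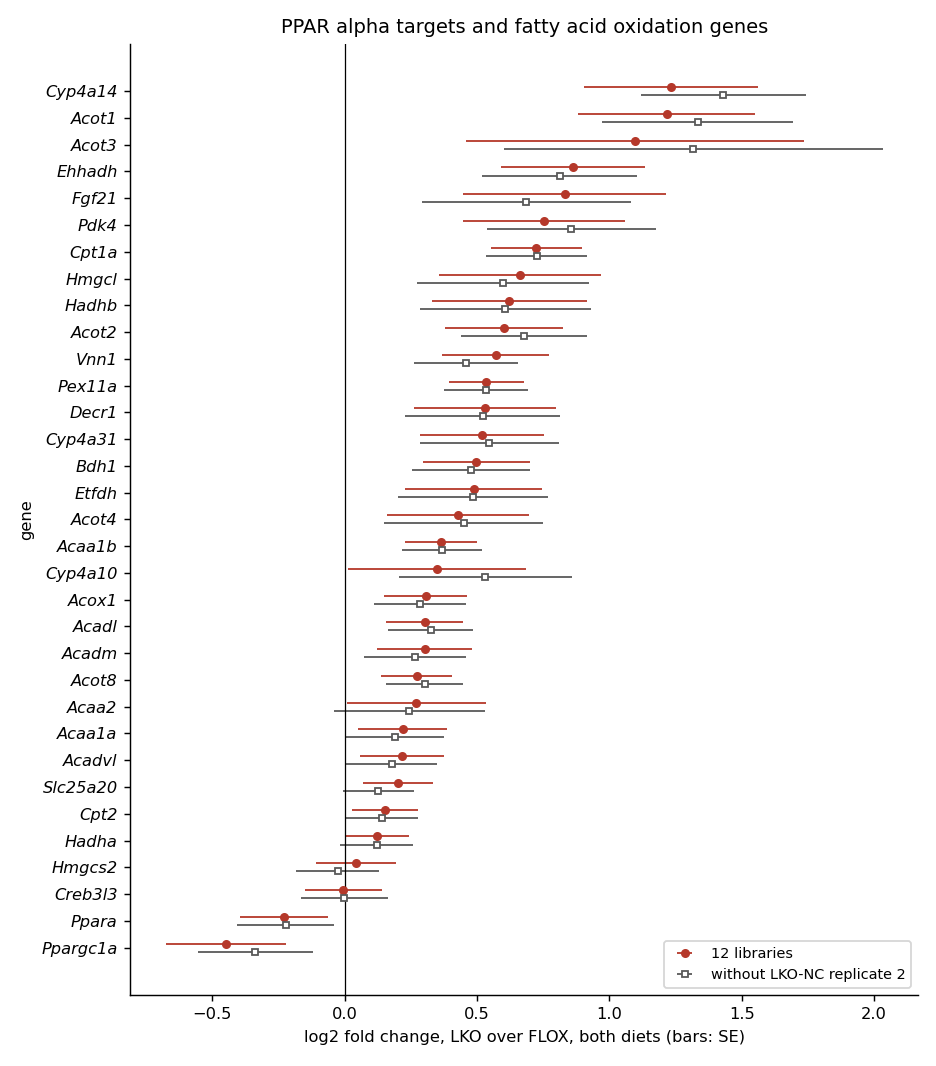
Pooled log2 fold change (knockout over floxed, both diets) of the 33 PPAR alpha targets and oxidation genes, with SE, over 12 libraries (red circles) and without LKO-NC replicate 2 (open squares). In the 12-library fit 30 of the 33 lie above 0, and Ppara and Ppargc1a lie below.

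Lipid droplets are built by coat proteins and emptied by lipases. Of 22 tested genes of droplets and lipases, 17 were positive (47.8% of all genes) and 10 were higher at an unadjusted p under 0.05 (2.02%), with 0 lower (2.69%), and the median was 0.36 (log2). Leaving out LKO-NC replicate 2, it was 8 higher and 0 lower with a median of 0.29, and Cidec alone passed. With ribosomal RNA share in the model it was 5 higher and 0 lower with a median of 0.17 (0.13 with LKO-NC replicate 2 left out too), and without the low-scaling pair 5 and 0 with a median of 0.27. Pnpla2 stood on the HFHS diet at 22.9, 26.5 and 28.9 CPM in LKO, against 11.7, 14.8 and 16.4 CPM in FLOX. Under the control diet there were 25.5, 33.7 and 27.3 CPM in LKO, against 20.3, 21.1 and 24.8 CPM in FLOX, so the genotypes were apart on both. Fitm1, which aids triglyceride partition into droplets, had a log2 fold change of 0.54 ± 0.18, and Plin2, the main droplet coat protein of hepatocytes, 0.79 ± 0.27 (SE). Plin2 overlapped between genotypes on both diets. Cidec also marks adipocytes, whose part in its level was not tested. Of the other markers of those cells, Plin1, Lep and Retn were at 0 counts in every library and Adipoq was too low to be tested. Of 6 tested adipocyte markers 2 were positive, with a summed level of 22.05 to 38.28 CPM in LKO-NC against 18.13 to 40.01 CPM in FLOX-NC, and 84.91 to 123.5 CPM in LKO-HFHS against 54.90 to 58.59 CPM in FLOX-HFHS, sums that contain Cidec itself.

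Desaturases and elongases build, among others, the polyunsaturated chains that Lpcat3 places into phospholipids. Of 21 tested genes of desaturation and elongation, 16 were positive (47.8% of all genes), 8 were higher at an unadjusted p under 0.05 (2.02%) and 0 lower (2.69%), with a median of 0.34 (log2), and 0 passed in edgeR. Leaving out LKO-NC replicate 2, it was 7 higher and 0 lower, with a median of 0.32. With ribosomal RNA share in the model it was 5 and 0 with a median of 0.18, and without the low-scaling pair 4 and 1 with a median of 0.22. Fads2 stood on the HFHS diet at 230, 594 and 418 CPM in LKO, against 118, 165 and 139 CPM in FLOX. On the control diet it stood at 225, 156 and 194 CPM in LKO, against 93.9, 129 and 157 CPM in FLOX. The genotypes were apart on the HFHS diet, and on the control diet LKO-NC replicate 2 lay just under the highest floxed library. Fads1, its partner desaturase, had a log2 fold change of 0.78 ± 0.28 (SE). Elovl5, the elongase of polyunsaturated chains, stood at 614, 503 and 612 CPM in LKO-NC, against 201, 240 and 345 CPM in FLOX-NC, with no overlap. On the HFHS diet it overlapped, and its pooled log2 fold change was 0.94 ± 0.25 (SE). Elovl7, an elongase of low level in these livers, had 1.40 ± 0.42 (log2, SE). In the uptake list, 11 of 12 genes were positive (47.8% of all genes) with a median of 0.29 (0.16 without the low-scaling pair). At an unadjusted p under 0.05, 3 of them were higher (2.02% of all genes). These were the fatty acid binding proteins Fabp2 (0.89 ± 0.33), Fabp5 (1.31 ± 0.49) and Fabp1 (0.47 ± 0.20, log2, SE).

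Fatty acid synthesis did not follow these lists. Of 21 tested genes 9 were positive (47.8% of all genes), with a median of -0.05 (log2). At an unadjusted p under 0.05, 2 were higher (2.02% of all genes) and 3 lower (2.69%). Srebf1, the transcription factor of lipogenesis and itself an LXR target, stood at 26.6, 35.1 and 35.4 CPM in LKO-NC, against 52.5, 59.96 and 55.3 CPM in FLOX-NC. On the HFHS diet it overlapped, at 27.8, 40.4 and 52.6 CPM in LKO against 75.7, 36.5 and 52.7 CPM in FLOX. Its pooled log2 fold change was -0.62 ± 0.20 (SE, adjusted p 0.912, edgeR). The liver pyruvate kinase Pklr had -0.48 ± 0.17 and the fatty acid synthase Fasn, named after its values were seen, -0.56 ± 0.26 (log2, SE). Higher were the acetyl-CoA synthetase Acss2 (0.53 ± 0.22) and Acacb (0.67 ± 0.29), the carboxylase whose product restrains Cpt1a. Without a scaling factor the list's median was 0.17, beside 0.25 for all tested genes. Its sign thus depends on the scaling, while it lay below the median of all tested genes either way.

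Of the 25 tested genes of cholesterol synthesis and uptake, none had an unadjusted p under 0.05, and 0 were called by edgeR, by DESeq2 and by limma voom. Their median was 0.05, with 0.34 on the HFHS diet (21 positive) and -0.29 on the control diet (8 positive, log2). The difference between diets was not tested, and the medians of all tested genes were 0.01 and -0.05. The 15 tested LXR targets, which include Lpcat3, had a median of -0.12. Among them Pltp, the phospholipid transfer protein of plasma lipoproteins, stood at 55.1, 24.8 and 32.0 CPM in LKO-HFHS, against 4.09, 7.32 and 7.08 CPM in FLOX-HFHS. The control-diet groups overlapped, at 32.7, 5.64 and 10.6 CPM in LKO against 13.5, 10.3 and 5.80 CPM in FLOX. Its pooled log2 fold change was 1.66 ± 0.49 (SE, adjusted p 0.912), and 1.96 ± 0.40 without LKO-NC replicate 2 (adjusted p 0.445, edgeR).

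Lpcat3 was followed at a distance by the other genes of phospholipid remodelling. Of 15 tested lysophospholipid acyltransferases and related genes, 8 were positive (47.8% of all genes) and the median was 0.01 (log2). Only Lpcat3 had an unadjusted p under 0.05 (4.71% of all genes). Tmem68 (0.34 ± 0.17) and Lpgat1 (0.28 ± 0.16, log2, SE) came next among the acyltransferases by p, at unadjusted p of 0.0667 and 0.106 (edgeR). Of 18 phospholipases 14 were positive with a median of 0.14, against 8 and -0.01 with ribosomal RNA share in the model, and the glycerophosphocholine phosphodiesterase Gpcpd1 (0.65 ± 0.25) was the 1 with an unadjusted p under 0.05. Of 22 genes of phospholipid synthesis 15 were positive with a median of 0.09, and Pisd (0.60 ± 0.26, log2, SE), which makes phosphatidylethanolamine in mitochondria, was the 1. Of 24 lipoprotein genes 15 were positive, with 2 higher (2.02% of all genes) and 2 lower (2.69%) at an unadjusted p under 0.05. The higher ones were Apoa4 (1.33 ± 0.38), an apolipoprotein of triglyceride-rich particles, and Pltp. Apoc3, which restrains lipoprotein lipase, had -0.57 ± 0.26 (log2, SE).

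Heat shock and immediate early genes respond fast to stress and handling. Of 26 heat shock and immediate early genes, 23 were positive (47.8% of all genes), with a pooled median of 0.48 (log2). At an unadjusted p under 0.05, 9 were higher (2.02% of all genes) and 0 lower (2.69%). With ribosomal RNA share in the model it was 8 higher and 1 lower with a median of 0.55. Without the low-scaling pair it was 8 and 0 with a median of 0.53. Over 12 libraries the median was 0.87 on the control diet and 0.09 on the HFHS diet, and the difference between diets was not tested for the list. The list's summed level was 2620 to 4773 CPM in LKO-NC against 1942 to 2279 CPM in FLOX-NC, and 2401 to 2825 CPM in LKO-HFHS against 2180 to 2429 CPM in FLOX-HFHS. The small chaperone Hspb1 had 2.45 on the control and 0.35 on the HFHS diet, and the proto-oncogene Myc 2.28 and 0.49 on the same diets (log2). Atf3, which is in this list and in that of the integrated stress response, had 1.70 and 1.42 on these diets. The part of handling stress in these values was not tested.

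Of 20 genes of the integrated stress response 12 were positive (47.8% of all genes) with a median of 0.14. Of 23 genes of endoplasmic reticulum stress 16 were positive with a median of 0.07. With ribosomal RNA share in the model it was 10 with a median of -0.05. In endoplasmic reticulum stress all 23 genes were positive on the control diet (median 0.39) and 3 of 23 on the HFHS diet (median -0.29, log2). This difference was not tested. Medians of all tested genes were -0.05 and 0.01 on these diets. The cytosolic ribosomal protein genes moved alike, with 29 of 29 positive on the control and 6 of 29 on the HFHS diet. Interferon response genes went the other way, with 5 of 35 and 28 of 35. Summed ribosomal protein levels overlapped on the control diet, at 9261 to 10780 CPM in LKO-NC against 5299 to 11660 CPM in FLOX-NC. In the pooled fit 21 of these 29 genes were positive. With ribosomal RNA share in the model 3 were positive, and without the low-scaling pair 4. At an unadjusted p under 0.05, both stress lists held 2 genes higher (2.02% of all genes) and 0 lower (2.69%). For the integrated stress response these were Atf3 and the hepatokine Fgf21 (0.83 ± 0.38). For endoplasmic reticulum stress they were the kinase Eif2ak3 (0.63 ± 0.21) and the cochaperone Dnajb9 (0.70 ± 0.31, log2, SE). Eif2ak3 had 1.10 on the control and 0.17 on the HFHS diet, and Dnajb9 1.32 on the control and 0.08 on the HFHS diet (log2). The 22 NRF2 targets held none, in either direction, with 0 called by edgeR, DESeq2 or limma voom. Of 17 tested ferroptosis genes 13 were positive with a median of 0.08, and Acsl4 (0.62 ± 0.29, log2, SE), which activates arachidonate for phospholipids, was the 1 with an unadjusted p under 0.05. Among 25 acute phase genes 10 were positive and 15 negative, with a median of -0.07 (log2). At an unadjusted p under 0.05, 2 were higher (2.02% of all genes) and 1 lower (2.69%). The higher ones were the metallothioneins Mt2 (1.48 ± 0.46) and Mt1 (0.98 ± 0.33), and the lower one Orm3 (-1.04 ± 0.47, log2, SE). Mt2 stood on the HFHS diet at 49.8, 36.6 and 63.7 CPM in LKO, against 20.9, 15.1 and 16.6 CPM in FLOX. Control-diet livers had 22.4, 3.86 and 62.8 CPM in LKO, against 12.5, 6.27 and 13.7 CPM in FLOX. Here again LKO-NC replicate 2 was the lowest library of its diet, and without it the log2 fold change was 1.72 ± 0.28 (SE, adjusted p 0.136, edgeR).

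Sult1e1 (ENSMUSG00000029272), which inactivates estrogens by sulfation, was near the detection limit on the control diet, with 0.211, 0 and 0 CPM in LKO and 0.232, 0.176 and 0 CPM in FLOX. HFHS livers had 0.308, 0.420 and 0.128 CPM in LKO, against 1.73, 2.27 and 0.905 CPM in FLOX, with no overlap. The pooled mean difference was -1.34 on log2 of CPM plus 0.1, with a two-sided p of 0.045 (exact permutation within diet), and of 0.075 without LKO-NC replicate 2. In the fit across all genes its log2 fold change was -1.84 ± 0.98 (SE, adjusted p 0.912, edgeR). Of 13 tested sulfotransferase genes 7 were positive (47.8% of all genes). At an unadjusted p under 0.05, 2 were higher (2.02% of all genes) and 2 lower (2.69%). Higher were the sulfate donor synthase Papss2 (0.31 ± 0.12) and Sult2a7 (0.66 ± 0.30). Lower were the sulfate transporter Slc26a1 (-0.40 ± 0.13) and Sult1c2 (-0.60 ± 0.22, log2, SE). Sex-biased liver genes had medians of unlike sign on the diets, a difference that was not tested: that of 28 male-biased genes was 0.38 on the control and -0.57 on the HFHS diet, and that of 23 female-biased genes -0.14 and 0.53 (log2). Bile acid synthesis and transport, with 25 genes, held none at an unadjusted p under 0.05 over 12 libraries and 0 calls in edgeR, DESeq2 or limma voom.

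Marker lists of other liver cells lay on both sides of 0, and 47.8% of all genes were positive. Positive medians were those of neutrophils (0.66, 4 of 4 positive), erythroid cells (0.31, 6 of 8), mesothelial cells (0.18, 3 of 6) and cholangiocytes (0.14, 8 of 12, log2). Of 15 stellate cell and fibroblast genes 1 was positive (median -0.35), of 13 sinusoidal endothelial genes 2 (median -0.16), of 11 dendritic cell genes 0 (median -0.54) and of 10 B and plasma cell genes 1 (median -0.76, log2). At an unadjusted p under 0.05 these lists held 1 higher gene, a mesothelial marker, and 2 lower genes (2.02% and 2.69% of all genes). The lower ones were the stellate cell lectin Colec10 (-0.51 ± 0.23) and the B cell factor Ebf1 (-3.62 ± 1.09, log2, SE). In edgeR 0 passed, while DESeq2 called Ebf1. On the HFHS diet alone the dendritic cell median was 0.19 and that of B and plasma cells -0.09, beside -0.84 and -1.40 on the control diet, and without LKO-NC replicate 2 the stellate median was -0.19. Summed stellate levels overlapped, at 358.0 to 412.5 CPM in LKO-HFHS against 309.8 to 512.0 CPM in FLOX-HFHS, and 100.9 to 236.7 CPM in LKO-NC against 147.8 to 261.2 CPM in FLOX-NC. Of 13 Kupffer cell genes 4 were positive (median -0.08), with Timd4, a receptor of resident Kupffer cells, at -1.12 ± 0.41 (log2, SE). Of 27 extracellular matrix genes 4 were positive (median -0.19). Without a scaling factor their median was 0.04, beside 0.25 for all tested genes. The part of cell makeup in the results above was not tested.

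**Figure D4:**
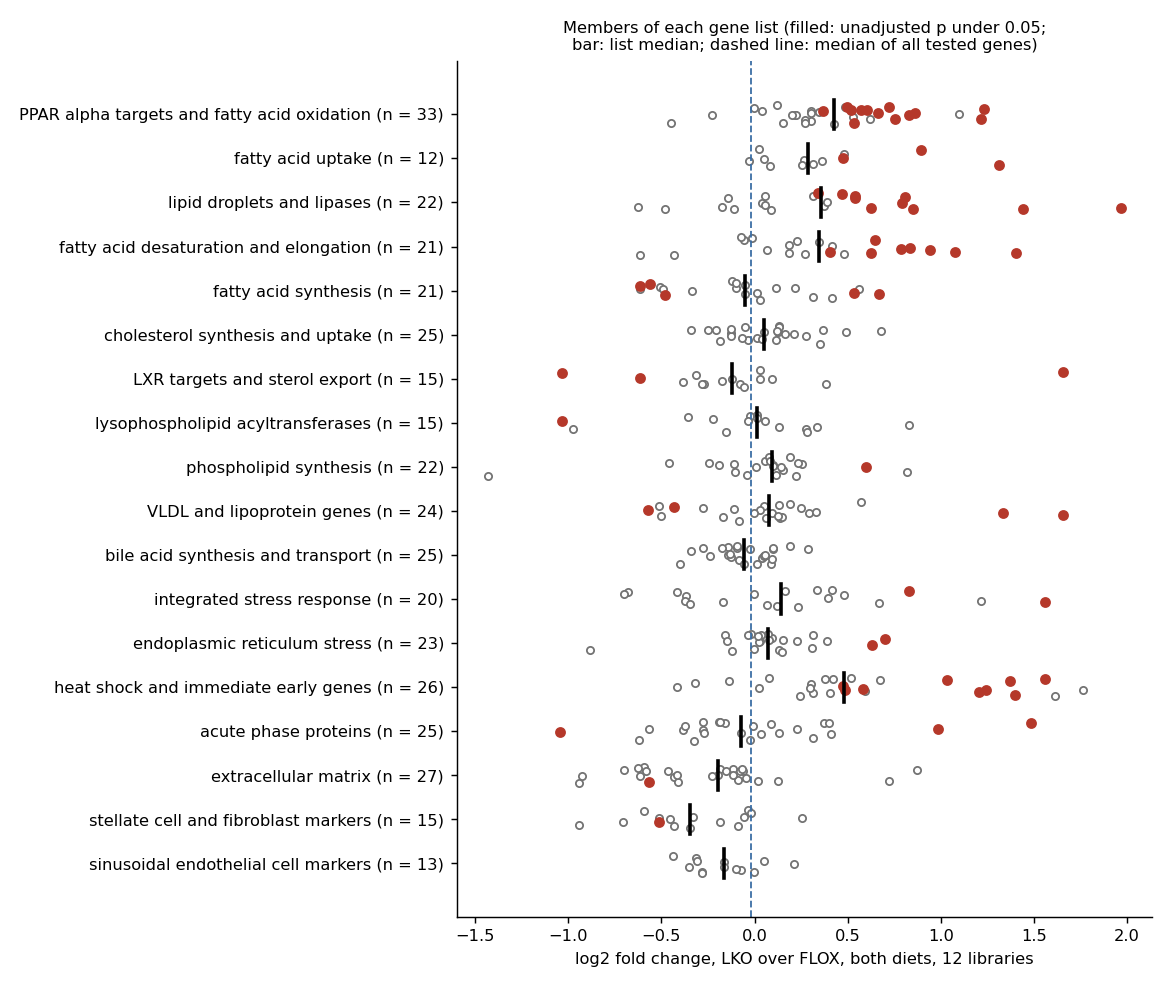
Pooled log2 fold change (knockout over floxed, 12 libraries) of each tested member of 18 gene lists; filled red points have an unadjusted p under 0.05, black bars are list medians and the dashed line is the median of all tested genes (-0.02). The bars of fatty acid oxidation (0.43), lipid droplets (0.36) and desaturation and elongation (0.34) lie right of it, and that of stellate cells (-0.35) left.

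Lastly, the knockout effect was compared between diets. Its log2 fold changes on the HFHS diet and on the control diet, which share no library, correlated weakly across 15982 genes, with a Pearson r of 0.06 and a Spearman rho of 0.07, and 52.5% of genes had the same sign. Over 8096 genes with a mean of at least 5 CPM these were 0.09, 0.13 and 54.2%. Genes are not independent replicates, and both diets were scaled together. On both diets, 50 genes (0.313%) were higher and 44 (0.275%) lower in knockout livers with no overlap of the genotypes. With LKO-NC replicate 2 left out there were 92 (0.576%) and 83 (0.519%). Separation is easier to reach with fewer libraries, so these counts cannot be set against those of 12 libraries. At such group sizes some genes separate by chance. For a gene without ties, a share of 0.005 of the 400 arrangements of genotype within diet separates fully on both diets. That share covers both directions together, higher or lower, for 12 libraries. These counts are therefore not read as a result, and no overlap of a named gene is a description only. The interaction of diet and genotype passed for 0 genes (0%) in edgeR, with 782 (4.89%) at an unadjusted p under 0.05 and 32 called by DESeq2.

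Of the 5 genes of smallest interaction p, 4 had opposite signs on the diets. The scramblase relative Plscr4 stood on the HFHS diet at 6.87, 7.37 and 6.36 CPM in LKO, against 2.75, 2.27 and 3.19 CPM in FLOX. In the control-diet groups it was at 0.871, 1.36 and 1.39 CPM in LKO, against 5.04, 3.24 and 1.80 CPM in FLOX. The glutathione transferase Gsta1, the interleukin 1 receptor Il1r1 and the RNA-binding protein Cpeb2 had positive log2 fold changes on the control diet (1.21, 0.71 and 1.06) and negative ones on the HFHS diet (-1.10, -0.77 and -0.84). Socs2, a target of growth hormone signalling, stood at 28.1, 49.8 and 15.4 CPM in LKO-HFHS, against 2.49, 3.53 and 0.597 CPM in FLOX-HFHS. Under the control diet there were 18.0, 14.4 and 27.6 CPM in LKO and at 15.2, 16.0 and 20.3 CPM in FLOX, with overlap. All 5 had an adjusted interaction p of 0.758 (edgeR).

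**Figure D5:**
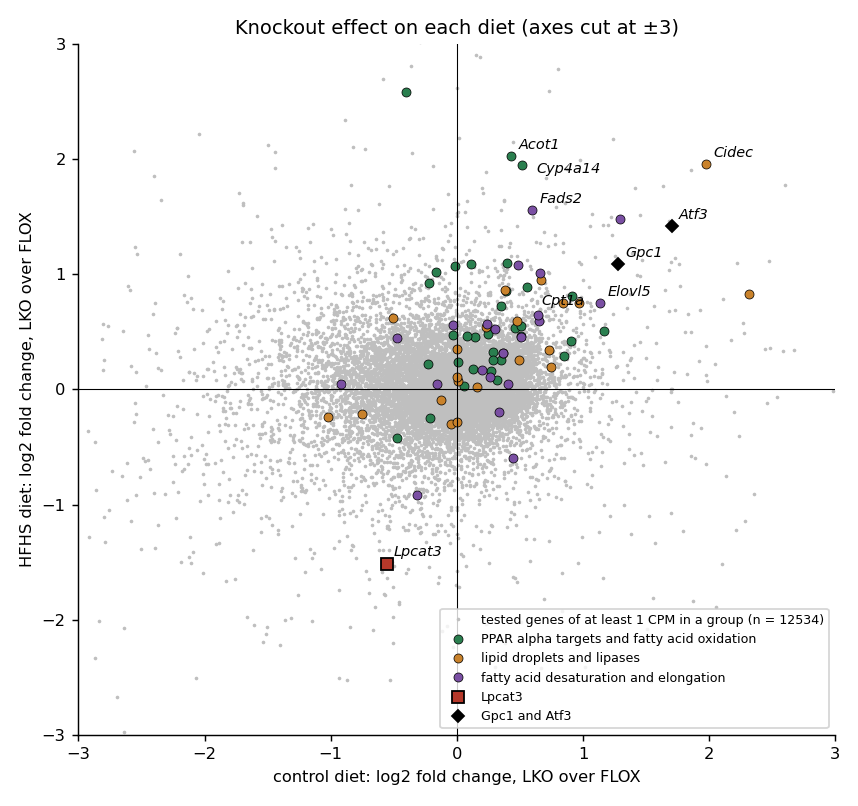
Log2 fold change, knockout over floxed, on the control diet (x axis) and the HFHS diet (y axis) for 12534 genes of at least 1 CPM in a group (grey), with members of 3 lists coloured and axes limited to ±3. Cidec (1.97 and 1.96), Atf3 (1.70 and 1.42) and Gpc1 (1.28 and 1.08) lie near the diagonal, while Acot1 and Cyp4a14 lie higher on the HFHS axis.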

How the data were processed

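Poly(A) RNA was sequenced, per the labels' protocols, which name both a KAPA stranded and a SMARTER mRNA kit. Whether counting used strand is not given in the sources used here, so overlapping and antisense genes cannot be told apart. Cutadapt, FastQC, HISAT2, StringTie, edgeR and the build mm10 are named in the submitters' processing notes. The authors deposited estimated counts per gene and per transcript, as whole numbers, and FPKM values. Their counts per gene were tested here, and FPKM values were used only as an alternative for Lpcat3 and Sult1e1. Depth was 34951150 to 59205759 counts per library, and intervals or floors cover counting error only.

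Genes were filtered by group with filterByExpr, leaving 15982 of 55401, scaled by TMM and fitted with a robust quasi-likelihood model of diet and genotype (edgeR 4.0.16, R 4.3.3), with Benjamini-Hochberg adjustment and a threshold of 0.05. The interaction came from a model with that term. The planned count test took raw counts, and estimated counts stood in their place. SE is the log2 fold change over the square root of F. DESeq2 1.42.0 and limma voom (3.58.1) were alternatives, as were other scalings, filters, left-out libraries, a replicate block and ribosomal RNA share in the model. Leaving out both libraries of lowest scaling factor was chosen after seeing the data. Each model was tested on simulated data.

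The labels do not say that replicate numbers pair libraries, so the main fits did not pair them. Same-numbered libraries had correlations of deviations of 0.3, -0.0196 and 0.137 on the control and 0.233, 0.193 and 0.0779 on the HFHS diet. Those of unlike number ran from -0.315 to 0.203. Replicate 1 had the highest ribosomal RNA share in every group. Structure shared by replicate number was not tested. No 2 libraries of the same group agreed within sampling noise. The members and the 46 gene lists were chosen with earlier results of these data known. Named genes are Lpcat3, Sult1e1, the 10 of smallest p in each direction over 12 libraries and without LKO-NC replicate 2 (1 CPM or more on average in the higher genotype, same sign on both diets, no clone-like name), up to 4 of smallest p in each list, and 5 of smallest interaction p. Clone-like names and lists not described are left out. Some results are not reported here. Promoter sequences are from RefSeq (GRCm38.p6).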

Additional observations from a re-analysis of the deposited data

How the results depend on the processing

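In the fit of 12 libraries the count of called genes was 0 and became 24 with DESeq2 and 5 with limma voom, and lay between 0 and 4 when 1 library was left out, with 4 only when that was LKO-NC replicate 2. In the fit of the other 11 libraries it was 4 and became 36 with DESeq2, 24 with limma voom, 2 with ribosomal RNA share in the model and 1 without both libraries of lowest scaling factor, and lay between 0 and 4 when 1 more library was left out. The interaction count was 0, became 32 with DESeq2 and lay between 0 and 1 across left-out libraries, with 1 only without FLOX-NC replicate 3. Without a scaling factor Ppara turned to 0.0678 (12 libraries) and 0.0877 (11 libraries) and Ppargc1a to 0.012 (11 libraries, log2). The medians of all tested genes were then 0.2531 (12 libraries) and 0.2865 (11 libraries), so these values still lay below them. The causes were not tested.

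With a replicate block, calls numbered 0 over 12 libraries and 8 without LKO-NC replicate 2. The exact p was then 0.0625 for Lpcat3 (mean log2 difference -1.131) and 0.0625 for Sult1e1 (-1.343), for which that is the smallest p possible. The Sult1e1 difference was -1.134 without a scaling factor, -1.012 on log2 of FPKM plus 0.1, -0.3549 on log2 of FPKM plus 1, and -1.615 to -1.174 across left-out libraries, with exact p between 0.015 and 0.08. At these levels its counts limit the precision, and 3 libraries a group limit that of every result.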

Other observations

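Several further gene groups held genes at an unadjusted p under 0.05 (edgeR, adjusted p 0.912 for each). Of all genes, 2.02% were higher and 2.69% lower at that p. Por, the reductase that feeds electrons to all microsomal P450 enzymes, stood at 95.7, 134 and 104 CPM in LKO-HFHS, against 46.3, 62.0 and 59.1 CPM in FLOX-HFHS, and its pooled log2 fold change was 0.68 ± 0.19 (SE). Its control-diet groups were at 148, 126 and 121 CPM in LKO, against 124, 66.8 and 113 CPM in FLOX, which overlap. Of the 26 drug-metabolising genes in its list, Por was the 1 higher and Cyp1a1 (-0.88 ± 0.38, log2, SE) the 1 lower. The Wnt targets Notum and Lgr5, marks of hepatocytes around the central vein, had -0.42 ± 0.13 and -0.74 ± 0.24 (log2, SE), and Myc of the same list 1.37 ± 0.43. That list held 8 positive genes of 19 (47.8% of all genes) with a median of -0.05 (log2), and 1 higher and 2 lower at that p. Notum did not overlap between genotypes on either diet, at 11.2 to 13.3 CPM in LKO-NC against 14.3 to 17.7 CPM in FLOX-NC, and 6.51 to 8.52 CPM in LKO-HFHS against 9.66 to 10.97 CPM in FLOX-HFHS. Stat5b and Stat5a, which carry the growth hormone signal, had -0.31 ± 0.12 and -0.43 ± 0.17, while Socs2 and Onecut1 of the same list had 1.97 ± 0.74 and 1.29 ± 0.56 (log2, SE). That list of 15 genes held 5 positive ones (47.8% of all genes) with a median of -0.12 (log2), and 2 higher and 2 lower at that p. Ifit1, an interferon target, had -0.87 ± 0.31 (log2, SE).

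Nnt, the mitochondrial transhydrogenase, was at 1.97 CPM in LKO-HFHS replicate 1, and at 23.3 to 100.4 CPM in the other 11 libraries. It was chosen after its values were seen.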
